A study of Mus musculus with 3 samples.

Results

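Glycolysis from glucose uptake to lactate was followed in 4T1 cancer stem cell spheroids (CSCsp) through 10 genes, of 19094 genes that the files name. They were chosen by name, 1 for glucose uptake and 1 for each of 9 enzyme steps: Slc2a1, Hk2, Gpi1, Pfkl, Aldoa, Tpi1, Pgk1, Eno1, Pkm and Ldha. All 10 were found by gene name in each of the 3 libraries, on 15 transcripts, and all 10 had an FPKM of at least 1 in every library. FPKM is a fragment count scaled by transcript length and by the mapped bases of the library, so levels of different genes can be set side by side.

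The 4T1 line models triple negative breast cancer and comes from mice of the Balb c/J strain. In every condition its cells were grown for 7 days on plates that prevent attachment, in serum free medium with the growth factors EGF and FGF and heparin, and spheroids that a 40 μm strainer retained were collected. The R-labelled library held CSCsp co-cultured for 2 days with splenocytes from mice that had carried a 4T1 tumor for 28 days, after reinforced activation of these splenocytes with anti-CD3/CD28 beads and IL2. The P-labelled library held CSCsp co-cultured with the same kind of tumor antigen primed splenocytes without reinforcement, and the N-labelled library held CSCsp with no co-culture. The splenocyte donors were 8-week-old female Balb/c mice when tumor cells were injected. After co-culture the spheroids were washed on the strainer to remove single splenocytes, and RNA of 4 independent experiments was multiplexed for sequencing. The series holds 1 library per condition. With 1 library per condition no difference has a replicate check, and no test between conditions was possible. Intervals below are exact 95% intervals on fragments and cover counting error only.

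Which of the P- and N-labelled libraries is which remains in doubt. The N-labelled library was deposited under a name for the saline that held primed splenocytes without reinforcement, and the P-labelled library under a name for no treatment. Fewer leukocyte markers, given below, reached an FPKM of 1 in the P-labelled library than in the N-labelled library (3 and 11). By the labels, P met splenocytes and N did not. Libraries are therefore called by their labels, and any comparison of P with N rests on them. The comparisons of R with P and of R with N do not change direction for any of the 10 genes when these labels are exchanged, because each gene lay on the same side of both libraries.

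Depth was near equal, at about 19178982 fragments in the R-labelled library, 17887652 in the P-labelled library and 17894139 in the N-labelled library. All 9 epithelial and mammary tumor markers were measured in each library. Of 60 leukocyte markers listed, 54 were in the files, and 13, 3 and 11 of these had an FPKM of at least 1 in the R-, P- and N-labelled libraries, with summed FPKM of 70.7, 36.2 and 98.6. T cell markers all lay under an FPKM of 1. Leukocyte marker RNA was thus lowest in the P-labelled library, with 31 of the 54 markers at 0 there and 7 in the N-labelled library. That is the reverse of the order by the labels, in which P met splenocytes and N did not. It bears on the doubt over these labels, which was not settled. The part of leukocyte RNA in the results was not tested.

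Glycolysis converts glucose to pyruvate in the cytosol and gains ATP on the way, and lactate dehydrogenase then reduces pyruvate to lactate and restores NAD+. Many tumor cells run this route at a high rate even with oxygen present. The genes of the route are classical targets of the transcription factors HIF1 and MYC. Hexokinase, phosphofructokinase and pyruvate kinase catalyze the irreversible steps, while the enzymes between them work in both directions.

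In the R-labelled library 9 of the 10 genes lay below both other libraries, and Hk2 lay above both. As R/N, R/P and P/N (the FPKM of the first library over that of the second), the libraries were compared in pairs. The median log2 ratio of the 10 genes was -0.63 for R/N and -0.67 for R/P, where that of all genes (those reaching an FPKM of 1 in one of the libraries compared) was 0.088 and 0.056. For P/N the median of the 10 genes was 0.038, against 0.021 for all genes. At 1.5-fold, 7 of the 10 genes were lower for R/N, beside 7.75% of 10270 genes. For R/P 6 of the 10 genes were lower at that fold, beside 8.6% of 10292 genes. Only 1 gene, Hk2, was at least 1.5-fold higher for R/N, beside 12.1% of all genes, and none was for R/P, beside 13.1%. After rescaling to a median ratio of 1 the shares of all genes higher and lower for R/N were 9.57% and 9.35%. Summed over the 10 genes, FPKM was 5188 in the R-labelled library, 8277 in the P-labelled library and 8152 in the N-labelled library. As deposited TPM, the 10 genes held 1.40%, 2.24% and 2.14% of all transcripts in the R-, P- and N-labelled libraries.

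**Figure D1:**
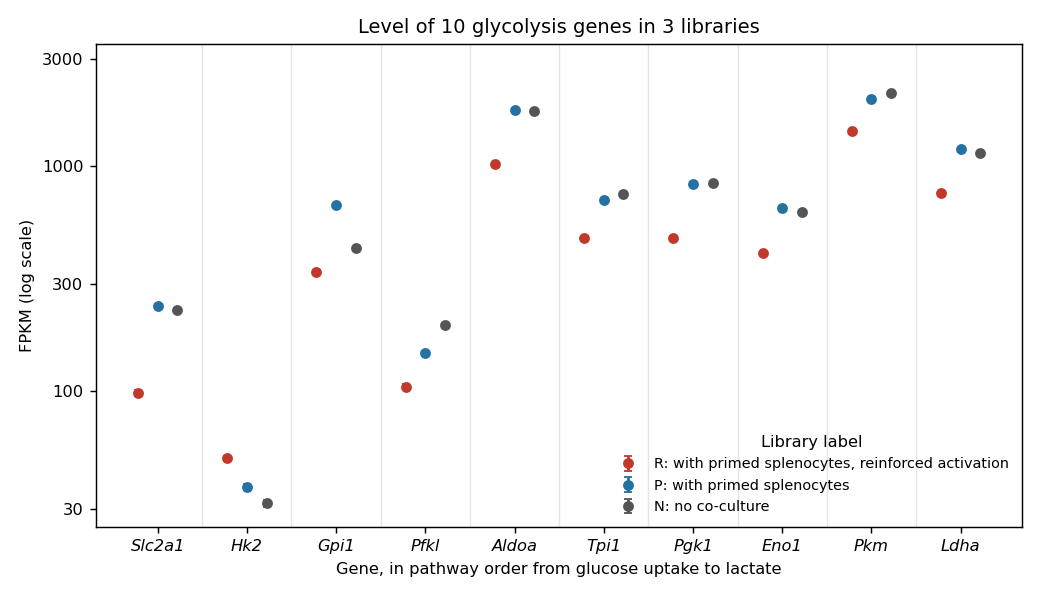
FPKM (vertical axis, log scale) of the 10 glycolysis genes (horizontal axis, in pathway order) in the R-, P- and N-labelled libraries. Points are single libraries, and bars are exact 95% Poisson intervals, mostly smaller than the points. The red points of the R-labelled library are the lowest for every gene except Hk2, where R lies at 50.3 against 37.5 in P and 31.8 in N.

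The share of lower genes depends on the fold. At a ratio of 0.8 or less, 9 of the 10 genes counted as lower both for R/N, beside 14.6% of all genes, and for R/P, beside 17.3%. At 2-fold only Slc2a1 was lower in either comparison, beside 4.03% and 3.95% of all genes. Because the 10 genes are highly expressed, they were also set beside genes that reached an FPKM of 100 in one of the libraries compared, a group chosen after the data were seen. Of these, 9.28% of 474 genes were at least 1.5-fold lower for R/N and 8.1% of 469 for R/P, and the median log2 ratios were -0.12 and -0.046. Of the 9 glycolysis genes at that level, 7 and 6 were lower. For P/N 1 of the 10 genes was at least 1.5-fold higher, beside 6.33% of 10200 genes, and none was lower, beside 7.3%.

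**Figure D2:**
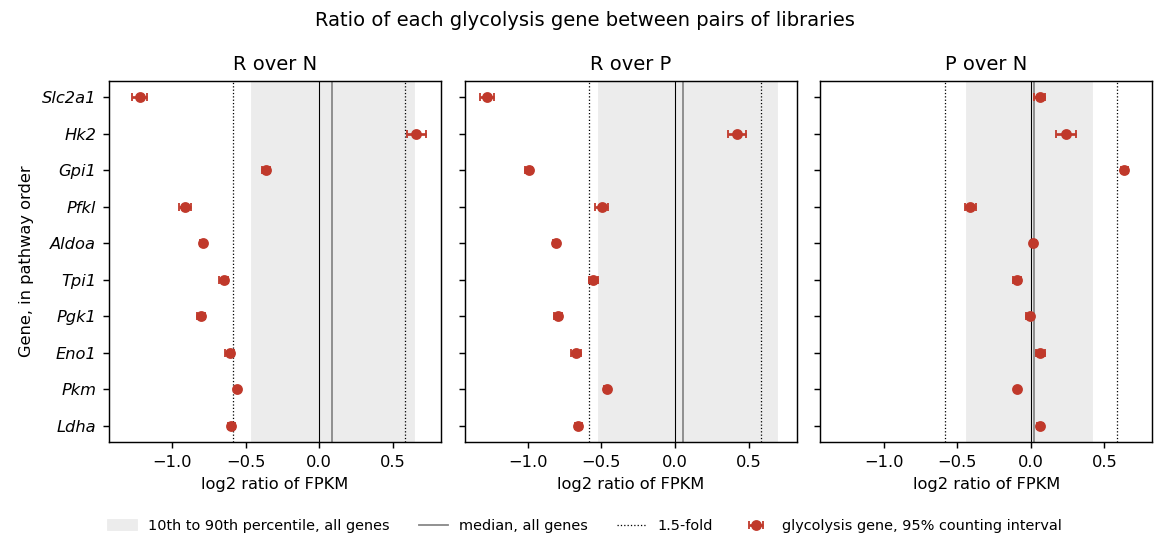
Log2 ratio of FPKM (horizontal axes) of each of the 10 genes (vertical axis) for R/N, R/P and P/N. Points carry 95% counting intervals, grey bands span the 10th to 90th percentile of all genes that reached an FPKM of 1, grey lines are their medians, and dotted lines mark 1.5-fold. In the left and middle panels 9 points lie left of 0, and in the right panel 9 lie within the band, while Gpi1 lies right of the 1.5-fold line.

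Glucose uptake showed the largest difference. Slc2a1 (chromosome 4, 119108745 to 119137329, GRCm38, plus strand) encodes GLUT1, the glucose transporter of most growing cells. Its FPKM was 98.7 in the R-labelled library, 239 in the P-labelled library and 229.9 in the N-labelled library. The R-labelled library thus stood apart, and the other two lay close together. Slc2a1 was 2.33-fold lower for R/N (2.25 to 2.41) and 2.43-fold lower for R/P (2.35 to 2.51). Only 2.82% and 2.45% of all genes had a lower ratio in these comparisons. The remaining glucose transporters listed were low: Slc2a8 had an FPKM of 4.83, 5.01 and 5.19 in the R-, P- and N-labelled libraries, and Slc2a6, found in lysosomal membranes of myeloid cells, had 3.81, 0.35 and 1.77. Slc2a6 was therefore 2.15-fold higher for R/N and 10.8-fold higher for R/P. Summed FPKM of leukocyte markers was 70.7, 36.2 and 98.6 in the same libraries, higher in R than in P but lower in R than in N, and its part in this was not tested. Slc2a1 made up 91.8%, 97.7% and 96.9% of the FPKM of the listed glucose transporters.

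Hexokinase, which traps glucose in the cell as glucose 6-phosphate, went the other way. Hk2 (chromosome 6, 82725027 to 82774454, minus strand), the inducible hexokinase that can bind mitochondria, had an FPKM of 50.3 in the R-labelled library, 37.5 in the P-labelled library and 31.8 in the N-labelled library. Its ratio was 1.58 for R/N (1.51 to 1.65), 1.34 for R/P (1.28 to 1.40) and 1.18 for P/N (1.12 to 1.24). After rescaling to a median ratio of 1 its log2 ratio for R/N was 0.57, short of 1.5-fold. Hk2 had the lowest level of the 10 genes in each library. Hk1, the hexokinase that most tissues express, was higher than Hk2, with an FPKM of 74.0, 85.5 and 84.0 in the R-, P- and N-labelled libraries. Summed over the listed hexokinases, FPKM was 125 in the R-labelled library, 123 in P and 116 in N, a ratio of 1.08 for R/N. Hk2 accounted for 40.2% of this sum in the R-labelled library, 30.5% in P and 27.4% in N. The step as a whole differed little, then, while its division between Hk2 and Hk1 did.

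Gpi1 (chromosome 7, 34201327 to 34230336, minus strand), the isomerase that makes fructose 6-phosphate, was the one gene of the 10 at least 1.5-fold apart between the P- and N-labelled libraries, a direction that rests on those labels. Its FPKM was 338 in the R-labelled library, 674 in the P-labelled library and 434 in the N-labelled library. The ratio was 0.78 for R/N (0.76 to 0.79), 0.50 for R/P (0.49 to 0.51) and 1.55 for P/N (1.53 to 1.58). Its locus also holds 3 long assembled transcripts without a gene name, at a summed FPKM of 17.0, 113 and 134 in the R-, P- and N-labelled libraries. With these added, a choice made after the data were seen, the ratios were 0.63 for R/N, 0.45 for R/P and 1.39 for P/N, so the call at 1.5-fold for P/N was lost. The low level in the R-labelled library held with and without them.

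Phosphofructokinase commits the sugar to glycolysis. Pfkl (chromosome 10, 77986949 to 78009796, minus strand), its liver type subunit, had an FPKM of 105, 148 and 197 in the R-, P- and N-labelled libraries. It was lowest in R and highest in N, with P between them. Pfkl was 1.88-fold lower for R/N (1.83 to 1.93) and 1.41-fold lower for R/P (1.37 to 1.46), and its ratio for P/N was 0.75. With the 3 assembled transcripts of its locus added, R/N was 0.63 and P/N was 0.90, so P then lay closer to N. The platelet type Pfkp and the muscle type Pfkm were also lowest in the R-labelled library. Pfkp had an FPKM of 21.3, 45.8 and 37.8, and Pfkm of 14.3, 21.0 and 24.8, in the R-, P- and N-labelled libraries. Over the 3 subunit genes FPKM summed to 141 in the R-labelled library, 215 in P and 259.6 in N, of which Pfkl held 74.7%, 68.9% and 75.9%.

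**Figure D3:**
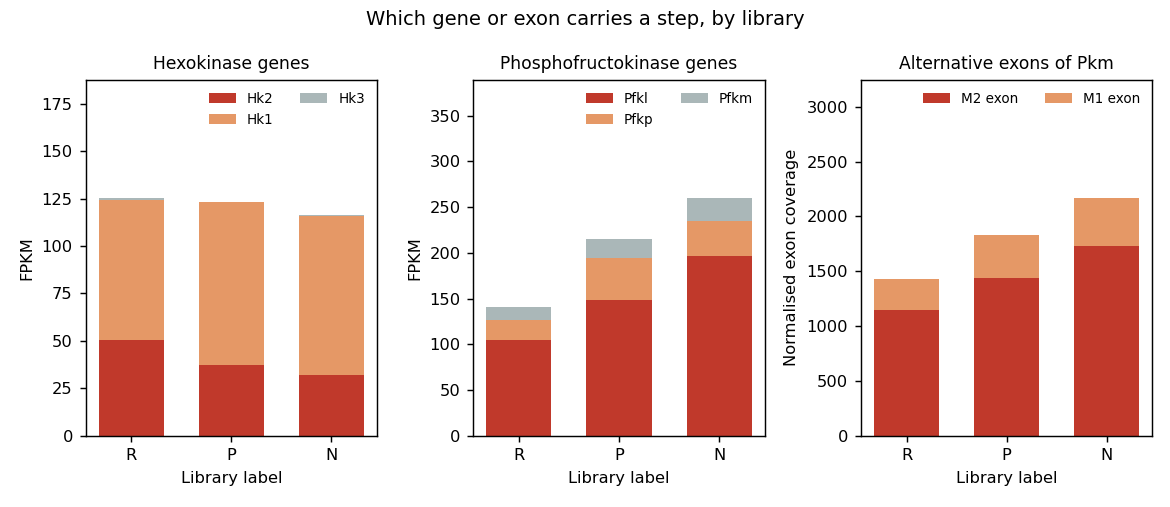
Stacked FPKM of hexokinase genes (left) and phosphofructokinase genes (middle), and stacked normalised coverage of the alternative M2 and M1 exons of Pkm (right), in the R-, P- and N-labelled libraries (horizontal axes). Each bar is 1 library. The hexokinase bars are of near equal height (125, 123 and 116) with a larger Hk2 part in R, while the phosphofructokinase bars are lowest in R (141, 215 and 259.6).

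The cleavage of the sugar into triose phosphates followed the pattern of uptake with a smaller difference. Aldoa (chromosome 7, 126795234 to 126800447, minus strand), the main aldolase of muscle and most tumor cells, was the second highest of the 10 genes in each library. Its FPKM was 1019 in the R-labelled library, 1787 in the P-labelled library and 1766 in the N-labelled library. Aldoa was 1.73-fold lower for R/N (1.71 to 1.75) and 1.75-fold lower for R/P (1.73 to 1.77). Nearly all of this was on transcript NM_007438, with an FPKM of 958, 1701 and 1699 in the R-, P- and N-labelled libraries. A second transcript, NM_001177308, which begins further upstream, had 51.6, 70.8 and 51.4, a ratio of 1.00 for R/N, where it was not lower as the leading transcript was, and of 0.73 for R/P. Aldoc, the brain type aldolase, was at 28.3, 46.8 and 41.3. Tpi1 (chromosome 6, 124810592 to 124814296, minus strand), which interconverts the triose phosphates, had an FPKM of 482, 709 and 756 in the R-, P- and N-labelled libraries. It was 1.57-fold lower for R/N (1.54 to 1.60) and 1.47-fold lower for R/P (1.440 to 1.502).

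The payoff steps gain ATP and NADH. Gapdh, which carries out the first of them, cannot be read from these files: its named transcripts are listed at 0 in the R-labelled library, at 42.0 in P and at 0.013 in N, while 3 assembled transcripts at its locus carry 12.6, 28.6 and 39.0. Pgk1 (chromosome X, 106187100 to 106203699, plus strand), the kinase that makes the first ATP, had an FPKM of 482, 838 and 842 in the R-, P- and N-labelled libraries. Pgk1 was 1.75-fold lower for R/N (1.71 to 1.78) and 1.74-fold lower for R/P (1.70 to 1.77), and P/N was 0.99 (0.98 to 1.01), within counting error of 1. In the R-labelled library the intervals of Pgk1 (475 to 489.7) and Tpi1 (474 to 490.04) overlap, so their order is not resolved there. Pgam1, the phosphoglycerate mutase that follows Pgk1, is not among the 10 genes and had 386, 801 and 781 in the R-, P- and N-labelled libraries, a ratio of 0.49 for R/N (0.48 to 0.50).

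Eno1 (chromosome 4, 150237197 to 150248873, plus strand), the enolase of most cells, is the one gene of the 10 that shares its StringTie locus with another named gene. Its FPKM was 411 in the R-labelled library, 655 in the P-labelled library and 626 in the N-labelled library. Eno1 was 1.52-fold lower for R/N (1.49 to 1.56) and 1.59-fold lower for R/P (1.56 to 1.63). Eno1b, a near copy of Eno1 on another chromosome, is listed there and also a second time over Eno1 on chromosome 4, so reads of the 2 genes cannot be told apart. Eno1b had an FPKM of 517, 776 and 795 over both places. The sum of Eno1 and Eno1b was 927 in the R-labelled library, 1431 in P and 1421 in N, with ratios of 0.65 for both R/N and R/P. The lower level in the R-labelled library therefore did not depend on how reads were split between the copies. Eno2, the neuronal enolase, was low, at 11.9, 35.9 and 28.1 in the R-, P- and N-labelled libraries, and had the lowest ratio for R/N among the isozymes that reached an FPKM of 1, 0.42 (0.38 to 0.47).

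Pkm (chromosome 9, 59656368 to 59679375, plus strand) encodes the muscle type pyruvate kinase, which makes the second ATP. Its transcripts hold one of a pair of mutually exclusive exons. One gives PKM1, a constantly active enzyme of muscle and brain, and the other gives PKM2, the form of growing and tumor cells whose activity is regulated. Both exons are the ninth of their transcript, and each is 167 bases long. They are shown because they alone distinguish the 2 forms, with capitals at the 64 positions where they differ and lower case at the 103 that are equal, read from the GENCODE transcripts of GRCm38 on the plus strand.
M1 exon, chr9:59675029-59675195: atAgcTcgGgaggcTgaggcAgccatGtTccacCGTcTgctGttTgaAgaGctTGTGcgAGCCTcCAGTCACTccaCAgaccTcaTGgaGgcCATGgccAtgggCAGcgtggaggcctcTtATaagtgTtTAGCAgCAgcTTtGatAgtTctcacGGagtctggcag
M2 exon, chr9:59675568-59675734: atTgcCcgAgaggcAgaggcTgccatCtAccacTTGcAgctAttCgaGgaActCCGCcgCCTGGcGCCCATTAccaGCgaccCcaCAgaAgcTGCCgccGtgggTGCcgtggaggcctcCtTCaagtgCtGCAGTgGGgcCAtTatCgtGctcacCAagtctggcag

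Pkm was the highest of the 10 genes in each library and ranked 10, 6 and 6 among all 19094 genes in the R-, P- and N-labelled libraries. Its FPKM was 1442 in the R-labelled library, 1991 in the P-labelled library and 2120.1 in the N-labelled library. It was 1.47-fold lower for R/N (1.46 to 1.49) and 1.38-fold lower for R/P (1.37 to 1.39), just short of 1.5-fold. With the assembled transcript of its locus added both ratios were 0.66, past that fold. The PKM2 transcript NM_011099 led, with an FPKM of 1079, 1270 and 1461 in the R-, P- and N-labelled libraries, and the PKM1 transcript NM_001253883 had 363, 721 and 659. By these values PKM2 made up 74.8%, 63.8% and 68.9% of Pkm. Within these transcripts, coverage of the distinguishing exons gave another picture, with M2 at 79.7% in the R-labelled library, 78.7% in P and 79.8% in N. The difference in PKM2 share between libraries was thus seen in the transcript values and not in this exon coverage. Coverage that StringTie gave to the assembled transcript (FPKM of 57.3, 269.5 and 138 in R, P and N) is left out of these exon values. Both exons were lower in the R-labelled library than in N by the same amount, with ratios of 0.66 for M2 and 0.66 for M1.

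Ldha (chromosome 7, 46845804 to 46855627, plus strand), the lactate dehydrogenase subunit that favours lactate formation, was the third highest of the 10 genes in each library. Its FPKM was 759.7 in the R-labelled library, 1198 in the P-labelled library and 1149 in the N-labelled library. Ldha was 1.51-fold lower for R/N (1.49 to 1.54) and 1.58-fold lower for R/P (1.55 to 1.60). Ldhb, the heart type subunit, had an FPKM of only 6.36, 6.76 and 6.83, so Ldha held over 99% of lactate dehydrogenase FPKM, at 99.2%, 99.4% and 99.4% in the R-, P- and N-labelled libraries.

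The lower level of the 9 genes held along their whole length. Over the exons of their leading transcripts, normalised coverage in the R-labelled library lay below that in the N-labelled library at 108 of 108 exons, and below that in the P-labelled library at 108 of 108. At Hk2 it was higher at all 18 exons in both comparisons. Within a gene the ratios were close: for R/N they ran between 0.54 and 0.58 over the 9 exons of Aldoa, between 0.55 and 0.61 over the 11 of Pgk1 and between 0.64 and 0.69 over the 8 of Ldha. At Hk2 they ran between 1.33 and 1.93. Exons of 1 gene come from the same RNA molecules and are not replicates, and where a locus has several transcripts StringTie divided the coverage among them.

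**Figure D4:**
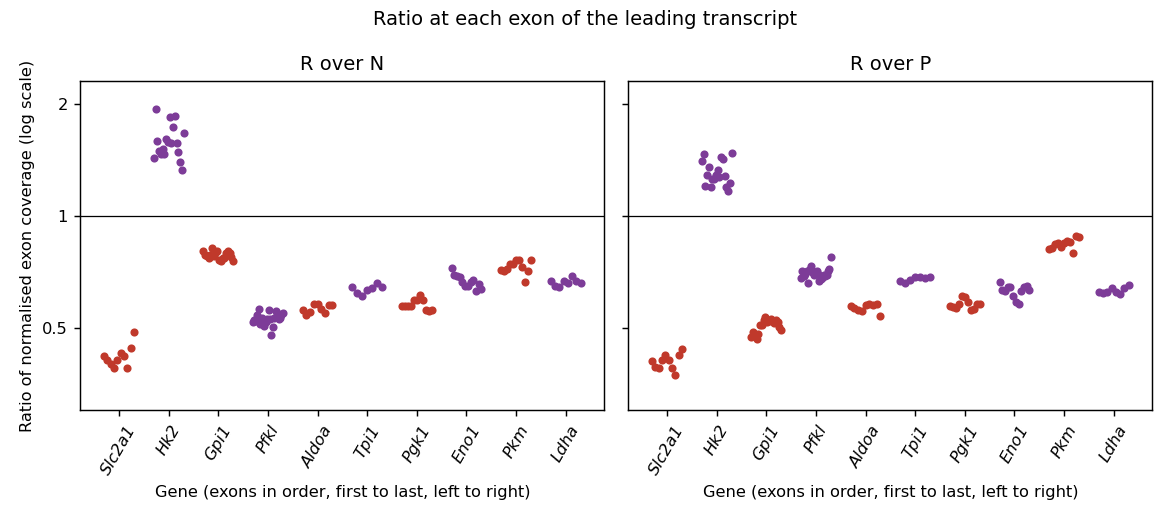
Ratio of normalised coverage (vertical axis, log scale) at each exon of the leading transcript of the 10 genes (horizontal axis, exons in order within a gene), for R/N (left) and R/P (right). Each point is 1 exon, and the line marks a ratio of 1. All 108 points of the 9 genes other than Hk2 lie below the line in both panels, and the 18 of Hk2 lie above it.

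Other genes of glucose metabolism were read in the same way, from 8 lists of 71 genes in all. Of 10 measured isozymes 4 were at least 1.5-fold lower for R/N (Pfkm, Pfkp, Eno1b and Eno2) and 1, Slc2a6, was higher. Over all genes these shares were 7.75% and 12.1%. Reads of Eno1b cannot be told apart from those of Eno1, so Eno1b adds no separate count. The median log2 ratio of the isozymes was -0.44. The lactate exporter Slc16a1 had an FPKM of 36.6, 30.5 and 35.1 in the R-, P- and N-labelled libraries, whereas Bsg, the chaperone that brings it to the membrane, had 479, 910.2 and 1095, a ratio of 0.44 for R/N (0.43 to 0.45). Slc16a3, the exporter of highly glycolytic cells, was near or under an FPKM of 1, at 0.48, 0.090 and 1.05.

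Of the 10 measured genes that take pyruvate into mitochondria and the pyruvate dehydrogenase complex, none was 1.5-fold lower for R/N and 1 was higher. Over all genes the shares were 7.75% and 12.1%, so these counts lie near them. Pdha1, the catalytic subunit gene of that complex, was the highest of them and had an FPKM of 44.7, 44.5 and 46.1 in the R-, P- and N-labelled libraries. Pdp1, a phosphatase that activates the complex, was the one that passed, at 1.86, 1.40 and 1.20. Pdk1, a kinase that inactivates it, had 13.0, 17.5 and 17.2, and Pdhx, which anchors a subunit, had 4.33, 2.98 and 3.10. The median log2 ratio of this list was 0.0079 for R/N and 0.066 for R/P.

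The pentose phosphate pathway branches off at glucose 6-phosphate and supplies NADPH and ribose. Its 8 measured genes had a median log2 ratio of 0.18 for R/N and 0.42 for R/P. None was 1.5-fold lower in either, beside 7.75% and 8.6% of all genes. With 8 genes, the absence of lower ones is near these shares. At that fold 1 was higher for R/N and 2 for R/P, beside 12.1% and 13.1%. G6pdx, its entry enzyme, had an FPKM of 35.6 in the R-labelled library, 22.2 in P and 25.2 in N, a ratio of 1.60 for R/P. Rpe, an epimerase of its non-oxidative part, had 9.91, 6.61 and 5.09 in the R-, P- and N-labelled libraries, a ratio of 1.95 for R/N (1.66 to 2.28). Rpia, the ribose phosphate isomerase, had 15.4, 9.30 and 15.0, and Tkt, a transketolase and the highest of the list, had 107, 98.1 and 122.

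Of 4 measured regulators of flux, 1 was at least 1.5-fold higher for R/N, beside 12.1% of all genes. None was lower, beside 7.75%. The higher one was Tigar, a phosphatase that lowers fructose 2,6-bisphosphate, at 2.05-fold (1.45 to 2.93). Its FPKM was low, at 1.55, 0.44 and 0.76 in the R-, P- and N-labelled libraries. The opposing Pfkfb3, a kinase that makes this activator of phosphofructokinase, had 11.0, 11.6 and 14.8, and Pfkfb2 had 4.49, 4.70 and 6.37. Of gluconeogenesis only 3 of 7 genes reached an FPKM of 1, and none of these was 1.5-fold apart in any comparison. Over all genes between 6.33% and 13.1% passed that fold in each direction of each comparison. G6pc3, a widely expressed glucose 6-phosphatase, was the highest, at 12.5, 12.2 and 11.0 in the R-, P- and N-labelled libraries. Pck2, the mitochondrial form of a key enzyme of that route, had 10.9, 11.4 and 9.11.

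**Figure D5:**
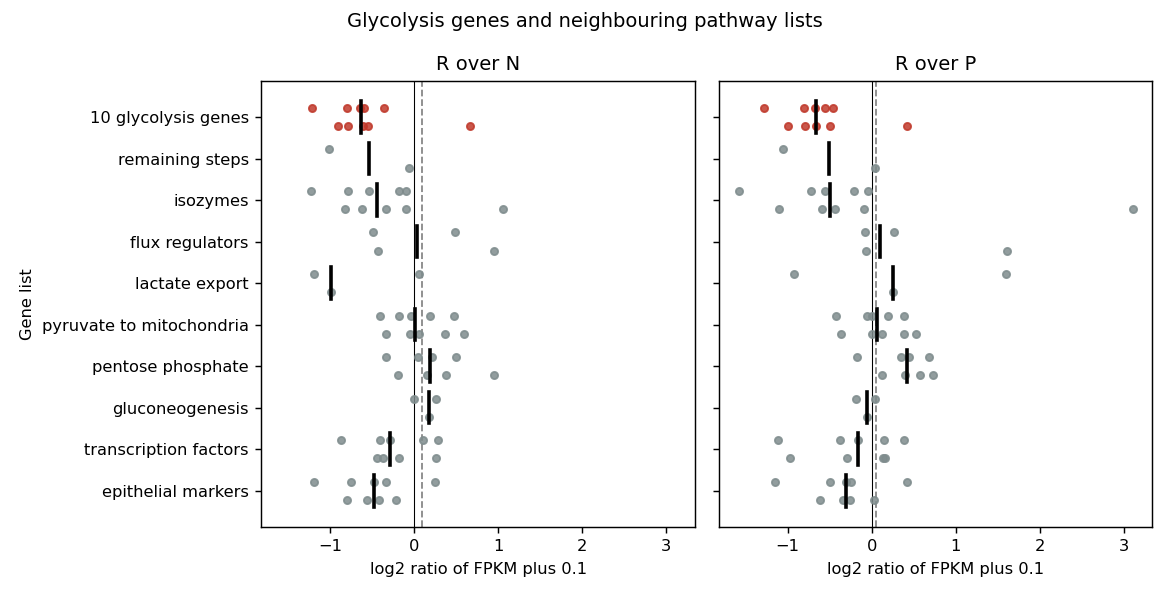
Log2 ratio of FPKM plus 0.1 (horizontal axes) for R/N (left) and R/P (right) of the 10 glycolysis genes (red) and the measured genes of neighbouring lists (grey, vertical axis). Points are genes, black bars are medians of the lists, the dashed line is the median of all genes, and Gapdh is left out because it could not be read. The red points centre on -0.63 and -0.67, while the list of pyruvate entry into mitochondria centres on 0.0079 and 0.066.

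Of the transcription factors and oxygen sensors that act on these genes, 9 of 11 were measured. Hif1a, the oxygen-regulated subunit of HIF1, had an FPKM of 4.70, 9.35 and 6.45 in the R-, P- and N-labelled libraries, ratios of 0.73 for R/N (0.66 to 0.81) and 0.50 for R/P. Egln1, which marks HIF1A for degradation and is itself a HIF1 target, had 38.7, 84.0 and 71.3, a ratio of 0.54 for R/N (0.52 to 0.57). It was the one gene of the list at least 1.5-fold lower for R/N, beside 7.75% of all genes. Egln3, a related target, had 54.4, 70.4 and 72.1, and Arnt, the partner of HIF1A, had 18.6, 22.9 and 24.1. Myc had 35.9, 27.6 and 43.9, lowest in the P-labelled library, with ratios of 0.82 for R/N (0.77 to 0.88) and 1.30 for R/P (1.21 to 1.40). The part of these factors in the glycolysis values was not tested.

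Promoters of the 10 genes were searched on both strands of the 250 bases before the RefSeq start nearest to each leading transcript. The motifs were ACGTG, a core form of the hypoxia response element, and CACGTG, the E-box that MYC binds and that holds ACGTG. Other forms of the element were not searched. ACGTG was found for 4 of the 10 genes (Slc2a1, Hk2, Pgk1 and Ldha), beside 16.6% of all 32851 promoters. Counting any RefSeq promoter of a gene it was found for 6 of 10, beside 18.5% of 27025 genes. CACGTG was found for Ldha alone, at 2 places, beside 6.02% of all promoters. For Aldoa, Pkm and Tpi1 the nearest RefSeq start lies 446, 208 and 138 bases from that of the leading transcript. Slc2a1, Hk2, Pgk1 and Ldha held 1, 2, 2 and 5 matches of ACGTG, and only 1 of each gene is shown. The 5 at Ldha count each of its 2 E-boxes once on each strand, so they lie at fewer separate places. The sequences are from RefSeq (GRCm38.p6), on the strand of the gene, with the motif in capitals (CACGT is ACGTG on the opposite strand).
Slc2a1, plus strand, chr4:119108697-119108725: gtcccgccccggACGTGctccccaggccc
Hk2, minus strand, chr6:82774490-82774518: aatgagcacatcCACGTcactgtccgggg
Pgk1, plus strand, chrX:106186938-106186966: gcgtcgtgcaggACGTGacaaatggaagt
Ldha, plus strand, chr7:46845745-46845773: ggcccagcctacACGTGggttcccgcacg

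The motif was present both in Hk2, which was higher in the R-labelled library, and in Slc2a1, Pgk1 and Ldha, which were lower. At Ldha the printed match, 47 bases before the start, is part of an E-box. A match describes these letters and is not a site shown to be bound.

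Epithelial and leukocyte markers are given beside these results because the libraries are bulk RNA. The 9 epithelial and mammary tumor markers had a median log2 ratio of -0.48 for R/N and -0.31 for R/P. Of the 9, 3 were at least 1.5-fold lower for R/N, beside 7.75% of all genes. These were Krt14, Krt19 and Krt7, with ratios of 0.43, 0.58 and 0.59. All of the markers but Cdh1 were lower for R/N, and all but Cdh1 and Epcam for R/P. Krt18, a keratin and the highest of them, had an FPKM of 528, 653 and 779 in the R-, P- and N-labelled libraries, Epcam had 243, 237 and 282, and Cdh1, the E-cadherin gene, had 101, 75.5 and 84.9, ratios of 1.19 for R/N and 1.33 for R/P. In bulk RNA, fewer tumor cells and less of these transcripts per cell cannot be told apart. The summed FPKM of leukocyte markers was 70.7, 36.2 and 98.6 in the R-, P- and N-labelled libraries, and 13, 3 and 11 of them reached an FPKM of 1. Without Cd68 and Ltf, which carried most of the sum in P at levels not far from those in R and N, it was 40.1, 5.88 and 61.1. By the sum the R-labelled library held less of this RNA than N, and by the number of markers slightly more, and by both it held more than P. The part of either in the glycolysis values was not tested.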

How the data were processed

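RNA of 3 libraries was analysed, 1 per condition, with conditions taken from the labels. Per the labels and the file headers, the authors aligned reads by HISAT2 2.2.0 and ran StringTie on RefSeq and assembled transcripts (the submitters' processing notes give version 2.1.3, the headers of the files 2.1.5). For each transcript, coverage, FPKM and TPM stand in the deposited files. The notes name mm9, but 99.35% of 18155 symbols and 10 of the 10 genes overlap their gene in GRCm38.p6, so positions are given as GRCm38.

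FPKM was summed per gene over the transcripts that carry its name. Assembled transcripts carry none, and held 23.0%, 24.0% and 23.6% of FPKM in the R-, P- and N-labelled libraries. Fragments were taken from coverage at 300 bases per read pair. Levels carry exact Poisson intervals and ratios exact Clopper-Pearson intervals (95%). Log2 ratios are of FPKM plus 0.1, so differences of low genes are understated, and genes under an FPKM of 1 in both libraries were left out. With 1 library per condition no test was run, and genes were counted as apart at 1.5-fold. The 10 genes and the lists were chosen with earlier results of these data known. All 10 genes are named, and of each other list the highest gene and up to 4 with the largest ratios for R/N or R/P, given as examples. Other genes named were chosen once their values were known. Alternatives were TPM, other pseudocounts, filters and folds, median rescaling, RefSeq transcripts or the leading transcript alone and exchanged labels. Adding assembled transcripts, adding Eno1b to Eno1 and a filter of 100 FPKM were chosen after the data were seen. Counts and intervals were tried on simulated data that held counting error alone. These data had no spread between experiments, no split of reads between transcripts and no true change near 1.5-fold. How the calls behave under those conditions was therefore not tested. Software was SciPy 1.17.1, NumPy 2.4.6, Matplotlib 3.10.9 and pandas 2.3.3 under Python 3.11.15.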

Additional observations from a re-analysis of the deposited data

Results flagged for a closer look

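Transcripts that StringTie assembled at the loci of these genes carry no gene name and are left out of the gene values compared, except where the text says that they were added. At 2 loci their level was higher than in the N-labelled library beyond counting error. At Pfkl their summed FPKM was 25.1 in the R-labelled library and 36.6 in the P-labelled library, against 8.64 in the N-labelled library. At Pkm it was 269.5 in the P-labelled library, against 138 in the N-labelled library.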

How the results depend on the processing

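The direction for R/N and R/P was the same in the values moved by the leading transcript alone (6 values), assembled transcripts (10) or Eno1b added (2). It was also the same with TPM and with rescaling (20 values each). These 2 settings shift all genes of a comparison by nearly the same small amount, so they could not turn a direction here. Other pseudocounts cannot turn a direction, RefSeq transcripts alone gave the values reported, and exchanged labels swap R/N with R/P. Folds near 1.5 were sensitive to the scale. With TPM the median log2 ratio of the 10 genes was -0.58 for R/N and 0.083 for P/N, and 5 genes were at least 1.5-fold lower for R/N. With rescaling to a median ratio of 1 the medians were -0.71 for R/N and -0.73 for R/P, 8 and 7 genes were lower, and 0 were higher for R/N, since Hk2 dropped under the fold. With the labels P and N exchanged the medians were -0.67 for R/N, -0.63 for R/P and -0.038 for P/N. Genes higher were then 0 for R/N, 1 for R/P and 0 for P/N, where 1 was lower, and Gpi1 turned to -0.64 for P/N. With assembled transcripts added, 9 genes were lower for R/N and 7 for R/P, and 0 were higher for P/N. At 2-fold 1 gene was lower for R/N and 1 for R/P, and 0 were higher for R/N or P/N. At ratios of 0.8 or less, or its inverse, 1 gene was lower for P/N and 1 was higher for R/P. With a filter of 100 FPKM, which removes Hk2, 0 genes were higher for R/N. No paired analysis was possible because each condition has 1 library. Depth does not limit the 10 genes, whose intervals are narrow, and the spread between experiments is unknown.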
